A study of Mus musculus with 18 samples.

Results

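JAK2V617F+ and JAK2V617F- progenitor cells were compared in cultures in which TNF receptor 1 was blocked. The comparison used every array whose title names the TNFR1 blocking antibody (TNFR1 BA), which were 6 of the 18 arrays of the series, 3 of JAK2V617F+ cells and 3 of JAK2V617F- cells, and all 10335 probe sets of the deposited table. Both groups came from the marrow of Balb/c mice with an established myeloproliferative neoplasm (MPN). The MPN was induced by transplanting donor cells that a retrovirus had transduced with JAK2V617F, and GFP expression marked the JAK2V617F cells. Marrow, taken from several mice for each experiment, was cultured for 16 h with IL-3 at 50 ng/mL, SCF at 100 ng/mL and TNFR1 BA at 10 μg/mL, and Lin-Kit+ cells were then sorted into a GFP+ fraction, called JAK2V617F+, and a GFP- fraction, called JAK2V617F-. Both fractions therefore shared the diseased host, the culture, the growth factors and the antibody, and they differed in GFP. The mice's age was not found in the labels or methods. The TNFR2 BA and untreated cultures of the same study, with 6 arrays each, are used below to show where the TNFR1 BA difference stood apart. Their usable arrays also entered the fit, which held 17 arrays, and so shaped the standard errors and p-values of the TNFR1 BA difference.

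TNF acts through a pair of receptors. TNFR1, encoded by Tnfrsf1a, carries a death domain that recruits TRADD and RIPK1 and can lead to NF-κB and MAP kinase activation or to caspase activation, while TNFR2, encoded by Tnfrsf1b, has no death domain and signals through TRAF2 and the cIAP proteins. JAK2 is the kinase of the erythropoietin, thrombopoietin and IL-3 receptor families, and the V617F change makes it active without ligand. Mast cells and basophils derive from Kit+ marrow progenitors, depend on SCF and IL-3 in culture, and store tryptases, chymases and carboxypeptidase in granules.

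Signals were log2 values per probe set, and a difference is JAK2V617F+ minus JAK2V617F-, so that 1 unit is a doubling. Under TNFR1 BA and TNFR2 BA it is the mean over 3 replicate numbers, while for the untreated cultures, with 2 JAK2V617F+ and 3 JAK2V617F- arrays, it is the fitted value and can depart from the mean of the 2 pairs. The table ran from 2.22, a value that 4.69% of all entries shared and that is called the floor here, to 15.49. Values at the floor have no order, and a difference that starts or ends there may be understated. Median signals of the 6 arrays lay between 7.41 and 7.75, and 19.6% to 25.8% of probe sets were under 4. Arrays correlated across probe sets by 0.73 to 0.77 among JAK2V617F+ cells, by 0.70 to 0.73 among JAK2V617F- cells and by 0.69 to 0.77 between the genotypes, so that array-wide correlation did not separate them. The median SD within a group was 1.04 in JAK2V617F+ cells and 1.14 in JAK2V617F- cells. Kit, the receptor used in the sort, read 3.71, 8.21 and 9.04 in JAK2V617F+ arrays, against 5.50, 8.78 and 9.20 in JAK2V617F- arrays, and was low in replicate 1 of both genotypes. Jak2 itself read 5.73, 8.48 and 9.09 in JAK2V617F+ arrays, against 7.86, 7.63 and 7.18 in JAK2V617F- arrays, and the groups overlapped. Neither labels nor methods say whether this probe set detects the transgene, so it is no check of the sort.

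Under TNFR1 BA, the mast cell granule genes Tpsab1, Tpsb2, Cma1 and Cpa3, the transcription factor Mycn and the cytokine Lif were higher in JAK2V617F+ cells, and in each of them every JAK2V617F+ array lay above every JAK2V617F- array. With limma and a threshold of 0.05 on the adjusted p, 11 probe sets were higher in JAK2V617F+ cells (0.106% of all tested) and 2 were lower (0.0194%), which is 0.126% in either direction. The higher ones were Tpsab1, Mycn, Phlda1, Lif, Tph1, Tpsb2, Atp1b2, Cma1, Clca3a1, Cox6b2 and Cpa3, and the lower ones were Xiap and Chd9. At an unadjusted p under 0.05, 476 probe sets were higher (4.61%) and 289 lower (2.80%). The groups did not overlap for 665 higher (6.43%) and 378 lower probe sets (3.66%). The median difference over all probe sets was 0.10, and 54.5% of differences were above 0. After quantile normalization of the arrays this median was 0.0007, with 10 higher and 2 lower calls. The replicates' own differences were weakly alike across probe sets, with correlations between pairs of replicates from 0.044 to 0.052. Neither labels nor methods say whether the mice of an experiment were pooled. The p-values rest on a spread between arrays that was estimated over all 6 groups, not on the TNFR1 BA arrays alone. An SE therefore need not reflect the scatter of a gene's own TNFR1 BA pairs. Cma1, for example, had pairs of 10.83, 4.77 and 3.88 with an SE of 1.03. The small number of arrays limits the precision. The cells were profiled in bulk, so fewer cells of a type and less RNA per cell cannot be told apart.

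**Figure D1:**
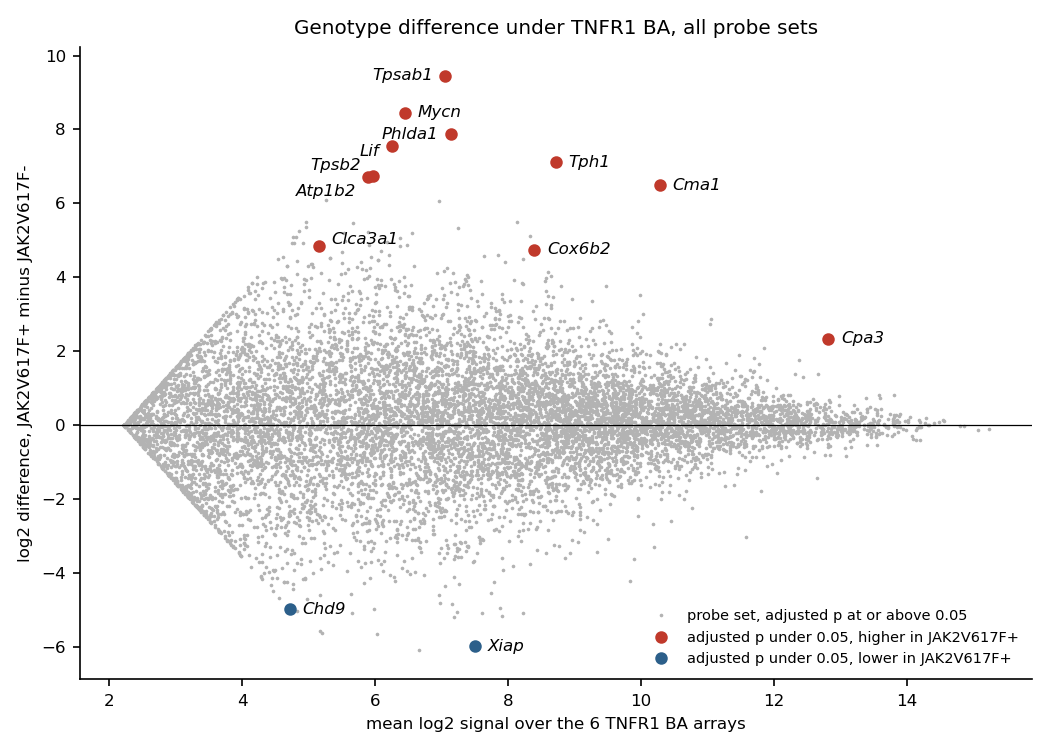
Difference between JAK2V617F+ and JAK2V617F- cells under TNFR1 BA (y axis, log2 units) against the mean log2 signal of the 6 arrays (x axis) for all 10335 probe sets. The 11 probe sets higher in JAK2V617F+ cells at an adjusted p under 0.05 are red and the 2 lower ones blue, and the called differences run from 2.34 (Cpa3) to 9.45 (Tpsab1) and from -5.97 (Xiap) to -4.97 (Chd9).

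The calls rested on all 17 usable arrays of the series, which share one estimate of the spread. The study left out the untreated JAK2V617F+ replicate 3 array, whose median signal was 6.05, and so did this fit. Fitted on the 6 TNFR1 BA arrays alone, 0 probe sets passed, with 321 higher and 202 lower at an unadjusted p under 0.05. With any 1 replicate number left out, 0 passed. The methods' t-test, paired by replicate, called 311 higher and 176 lower before adjustment and 0 after it. Differences picked for their size in so few arrays may be overstated.

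Of 13 granule proteases listed, 6 were measured and 4 passed as higher, where 0.106% of all probe sets did. They belong to a list chosen with earlier results of these arrays known. Tpsab1, Tpsb2 and Cma1 differed by over 6 log2 units. Ctsg, cathepsin G, which neutrophil precursors also make, differed by 0.24 (SE 0.13, adjusted p = 0.758) and its groups overlapped. Tpsab1, which encodes a mast cell tryptase, read 12.43, 10.68 and 12.23 in JAK2V617F+ arrays, against 2.25, 2.25 and 2.49 in JAK2V617F- arrays. The 2 ranges were far apart, with all JAK2V617F- values near the floor. The difference was 9.45 (SE 1.26, adjusted p = 0.00516). Tpsb2, the second tryptase, read 8.33, 8.92 and 10.76 in JAK2V617F+ arrays and 2.60 in each JAK2V617F- array, a difference of 6.74 (SE 1.04, adjusted p = 0.0159). The tryptases are close paralogs, and cross-hybridisation between their probe sets was not tested. Cma1, mast cell chymase, read 13.81, 13.05 and 13.74 in JAK2V617F+ arrays, against 2.98, 8.28 and 9.86 in JAK2V617F- arrays. Its JAK2V617F+ values were tight (13.53 ± 0.42, SD, n = 3) and its JAK2V617F- values scattered (7.04 ± 3.60), and the difference was 6.49 (SE 1.03, adjusted p = 0.0159). Cpa3, carboxypeptidase A3 of mast cell granules, differed in degree. It read 14.03, 13.67 and 14.26 in JAK2V617F+ arrays, against 10.58, 11.78 and 12.59 in JAK2V617F- arrays, which is a high signal in both. Its difference of 2.34 was the smallest of the 13 called and had the smallest standard error of them, 0.37 (adjusted p = 0.0159).

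Tph1, the enzyme that starts serotonin synthesis outside the brain and is expressed in mast cells, had the smallest p of all probe sets. It read 12.38, 12.07 and 12.38 in JAK2V617F+ arrays, against 3.31, 5.23 and 6.94 in JAK2V617F- arrays. The JAK2V617F+ arrays differed from each other by less than 0.5 log2 units, and the JAK2V617F- arrays were spread over several. The difference was 7.12 (SE 0.86, 95% CI 5.29 to 8.95, adjusted p = 0.00332).

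Promoters of the granule genes are shown because these genes moved together, and GATA factors are known regulators of mast cell genes in mice. Of 7 genes looked up (Tpsab1, Tpsb2, Cma1, Cpa3, Tph1, Mycn and Lif), 5 had a window in the RefSeq table of GRCm38.p6, and the 250 bases before the annotated start were searched on both strands for the GATA motif (the hexamer AGATAA with its variant AGATAG, likewise the hexamer TGATAA with its variant TGATAG) and for the STAT motif (TTCNNNGAA). Cma1, Cpa3 and the upstream start of Tph1 held 1 GATA match and 0 STAT matches each. Of 32851 such windows, 26.5% held a GATA match and 7.02% a STAT match, so these matches are common and are given as a description only. Matches are in capitals, and each sequence reads 5′ to 3′ toward the gene:
Cma1 (chr14:55944676-55944925, minus strand): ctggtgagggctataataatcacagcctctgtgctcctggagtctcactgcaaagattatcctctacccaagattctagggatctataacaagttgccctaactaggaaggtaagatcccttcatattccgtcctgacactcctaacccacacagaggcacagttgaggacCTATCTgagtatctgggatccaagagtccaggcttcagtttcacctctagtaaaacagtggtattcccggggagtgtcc
Cpa3 (chr3:20242182-20242431, minus strand): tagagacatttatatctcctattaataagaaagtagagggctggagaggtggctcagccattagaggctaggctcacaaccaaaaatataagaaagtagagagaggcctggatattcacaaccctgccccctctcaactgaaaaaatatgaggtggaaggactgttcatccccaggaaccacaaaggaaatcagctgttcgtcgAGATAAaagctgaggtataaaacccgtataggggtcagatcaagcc
Tph1 (chr7:46672538-46672787, minus strand): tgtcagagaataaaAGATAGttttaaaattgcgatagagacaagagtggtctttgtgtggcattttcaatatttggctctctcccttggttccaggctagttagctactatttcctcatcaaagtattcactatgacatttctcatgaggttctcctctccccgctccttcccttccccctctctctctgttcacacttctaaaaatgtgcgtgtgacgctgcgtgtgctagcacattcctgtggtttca
In the Cma1 window the match is the reverse complement of AGATAG and its first base is at -79, counted from the start. In Cpa3 the letters AGATAA begin at -46 and in Tph1 the letters AGATAG at -236. The second Tph1 start and the Mycn and Lif windows held 0 matches of either motif.

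Mycn, a MYC family transcription factor of stem cells and progenitors, separated the genotypes completely. It read 10.74, 10.16 and 11.11 in JAK2V617F+ arrays, against 2.22 in all 3 JAK2V617F- arrays, of which 2 were at the floor. The difference was 8.45 (SE 1.06, adjusted p = 0.00332). Myc, its relative, read 13.55, 13.48 and 12.68 in JAK2V617F+ arrays and 13.44, 13.27 and 13.04 in JAK2V617F- arrays, a difference of -0.01 (SE 0.36, adjusted p = 1).

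Lif, a cytokine of the IL-6 family that signals through LIFR and gp130, read 9.30, 9.72 and 11.08 in JAK2V617F+ arrays, against 2.24, 2.34 and 2.83 in JAK2V617F- arrays. Its difference was 7.57 (SE 1.13, adjusted p = 0.0153). Phlda1, a pleckstrin homology domain protein, read 11.79, 10.57 and 10.87 in JAK2V617F+ arrays and 4.05, 2.22 and 3.36 in JAK2V617F- arrays, a difference of 7.87 (SE 1.24, adjusted p = 0.0159). Atp1b2, a beta subunit of the sodium pump, read 10.48, 8.96 and 8.33 in JAK2V617F+ arrays and 2.49, 2.59 and 2.55 in JAK2V617F- arrays, a difference of 6.71 (SE 1.22, adjusted p = 0.0424). The JAK2V617F- arrays of Lif and Atp1b2, like those of Tpsab1 and Tpsb2, lay under 3, while those of Phlda1 reached 4.05. Asked, after the values had been seen, which probe sets were at 3 or less in every array of one genotype and at 7 or more in every array of the other, the table gave 5 higher in JAK2V617F+ cells (Mycn, Tpsab1, Lif, Tpsb2 and Atp1b2, 0.0484%) and 1 lower, Alg12 (0.00968%). Alg12, a mannosyltransferase of N-glycan assembly, read 2.22, 2.72 and 2.22 in JAK2V617F+ arrays against 8.40, 7.78 and 7.69 in JAK2V617F- arrays, and did not pass the test (difference -5.57, SE 1.58, adjusted p = 0.362).

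**Figure D2:**
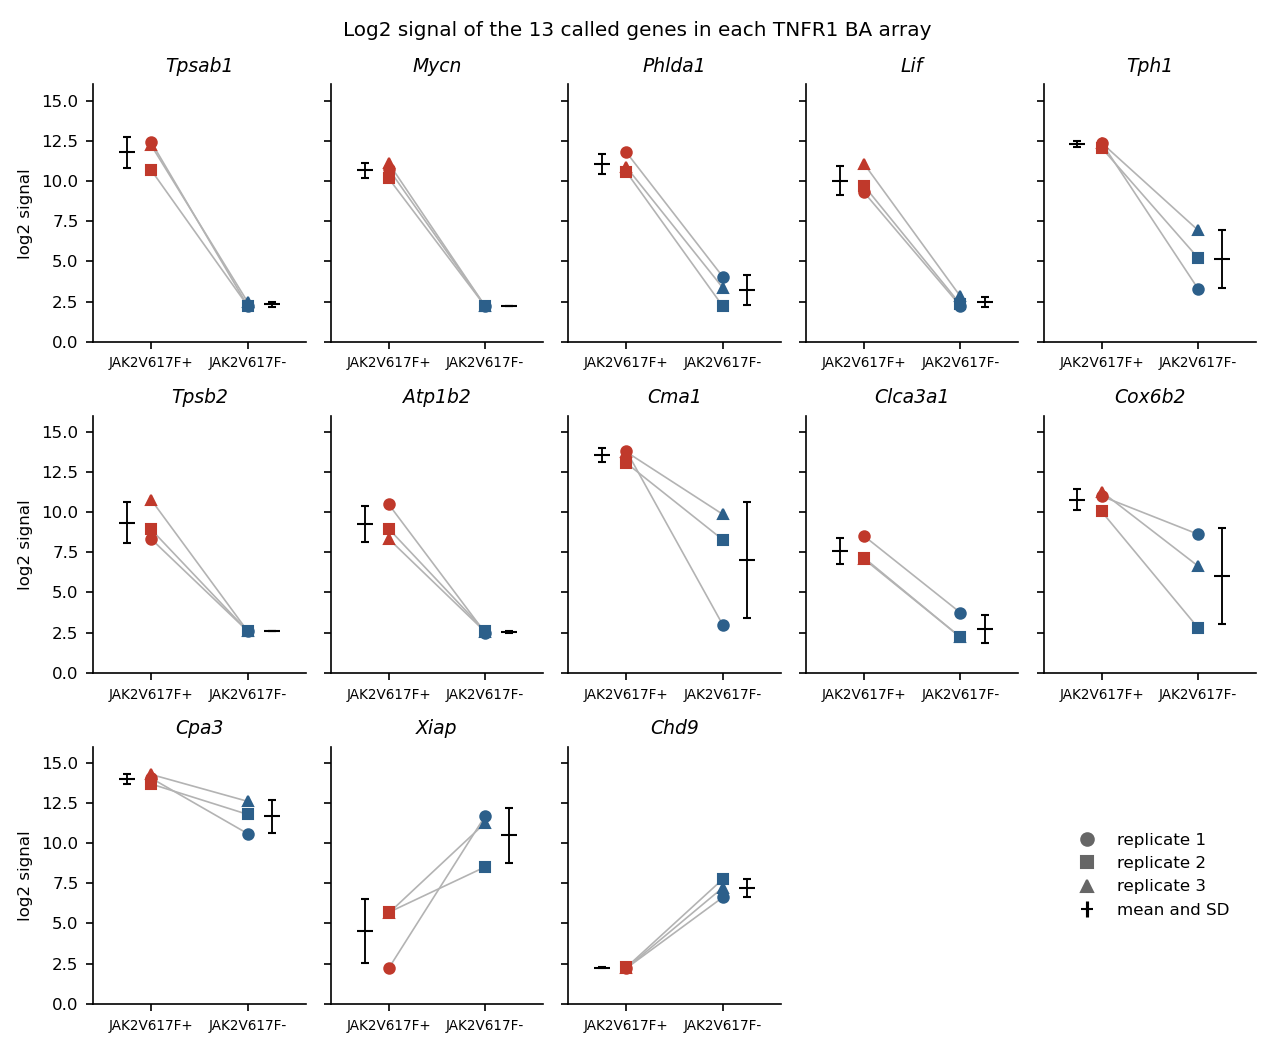
Log2 signal (y axis) of the 13 called genes in each TNFR1 BA array, with JAK2V617F+ cells on the left (red) and JAK2V617F- cells on the right (blue) of each panel. Lines join arrays of the same replicate number, and black marks give the mean and SD (n = 3). The JAK2V617F- arrays of Mycn, Tpsab1, Lif, Tpsb2 and Atp1b2 all lie under 3, while those of Cma1 (2.98 to 9.86) and Cox6b2 (2.80 to 8.62) are spread widely.

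Of the 34 mast cell and basophil genes listed, 20 were measured. In 18 the difference was above 0, 11 were higher at an unadjusted p under 0.05 and 0 lower, and 5 passed after adjustment (Tpsab1, Tpsb2, Cma1, Cpa3 and Tph1). Over all probe sets, 54.5% were above 0, and 4.61% were higher and 2.80% lower at that unadjusted p. The median difference of the list was 1.93, against 0.10 over all probe sets. Its mean log2 signal was 10.55, 10.21 and 10.96 in JAK2V617F+ arrays and 7.31, 8.28 and 8.37 in JAK2V617F- arrays. The list was chosen with earlier results of these arrays known, so its count is a description.

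The receptor and mediator genes of the mast cell list, other than Tph1, did not pass. Fcer1a, the IgE-binding chain of the high-affinity IgE receptor, read 12.31, 12.07 and 13.10 in JAK2V617F+ arrays, against 7.88, 10.58 and 10.41 in JAK2V617F- arrays (difference 2.87, SE 0.63, adjusted p = 0.166). Ms4a2, the beta chain, read 9.50, 8.53 and 10.66 against 6.42, 7.48 and 6.78 in JAK2V617F- arrays (difference 2.67, SE 0.86, adjusted p = 0.462). The groups did not overlap for either gene. Fcer1g, the gamma chain that other leukocytes share, differed by 0.52 (SE 0.32, adjusted p = 0.792). Hdc, which makes histamine, differed by 1.95 (SE 0.97, adjusted p = 0.704), and Alox5, which starts leukotriene synthesis, by 3.24 (SE 0.94, adjusted p = 0.362). The basophil protease Mcpt8 read 11.93, 12.94 and 14.14 in JAK2V617F+ arrays, against 11.11, 12.21 and 11.54 in JAK2V617F- arrays, and its ranges overlapped. Gata2, a transcription factor of mast cells and stem cells, differed by 1.34 (SE 0.60, adjusted p = 0.655). Kit (-0.84, SE 1.53) and the amine transporter Slc18a2 (-1.39, SE 0.74) were the 2 members with a difference below 0, at adjusted p = 0.958 and 0.73.

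Clca3a1 and Cox6b2 were called under TNFR1 BA and are in no list. Clca3a1, of the calcium-activated chloride channel regulator family, read 8.52, 7.16 and 7.08 in JAK2V617F+ arrays, against 3.74, 2.22 and 2.22 in JAK2V617F- arrays (difference 4.86, SE 0.81, adjusted p = 0.0223). The 3 pairs gave 4.78, 4.94 and 4.86, which was the narrowest range over pairs among the 13 called genes. Its probe set is of a kind (suffix x) whose probes may match other transcripts. Cox6b2, a cytochrome c oxidase subunit known from testis, read 10.99, 10.04 and 11.27 in JAK2V617F+ arrays, against 8.62, 2.80 and 6.64 in JAK2V617F- arrays (difference 4.74, SE 0.84, adjusted p = 0.0353). Most of its spread lay in the JAK2V617F- arrays (SD 2.96, against 0.65 in JAK2V617F+ arrays).

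Xiap, the X-linked inhibitor of apoptosis protein that binds and blocks caspases, was lower in JAK2V617F+ cells. It read 2.22, 5.69 and 5.64 in JAK2V617F+ arrays, against 11.69, 8.52 and 11.26 in JAK2V617F- arrays. The ranges did not overlap, but the pairs differed in size, by -9.47, -2.83 and -5.61, and replicate 1 of JAK2V617F+ cells was at the floor. The difference was -5.97 (SE 1.03, adjusted p = 0.0294). Chd9, a chromatin remodeler of the CHD family, read 2.22, 2.27 and 2.22 in JAK2V617F+ arrays, against 6.63, 7.76 and 7.23 in JAK2V617F- arrays (difference -4.97, SE 0.83, adjusted p = 0.0223). Its JAK2V617F+ arrays were at or near the floor, so its size may be understated.

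A further 8 lower genes, chosen as those of smallest p among probe sets whose groups did not overlap, did not pass. Mrc1, the macrophage mannose receptor, read 3.97, 7.55 and 5.53 in JAK2V617F+ arrays, against 10.89, 10.00 and 11.43 in JAK2V617F- arrays (difference -5.09, SE 1.16, adjusted p = 0.211). Igk-V21, an immunoglobulin kappa variable segment, read 4.37, 2.22 and 4.26 in JAK2V617F+ arrays and 10.42, 8.91 and 9.77 in JAK2V617F- arrays (difference -6.09, SE 1.58, adjusted p = 0.293). Tbc1d4, a Rab GTPase-activating protein, differed by -4.95 and Camk2d, a calmodulin-dependent kinase, by -4.08. Pafah1b1, a dynein regulator, differed by -3.90 and the semaphorin Sema6d by -3.24. Both Camk2d and Sema6d were under 2.3 in all 3 JAK2V617F+ arrays, and each had 1 JAK2V617F- array under 4. Rab2a, a Rab GTPase of the Golgi, differed by -1.79 and Adi1, an enzyme of the methionine salvage pathway, by -1.21, at high signal in both genotypes.

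Erythroid genes lay above 0 in every measured case, and 0 passed after adjustment. Of all probe sets, 54.5% were above 0, and 4.61% were higher and 2.80% lower at an unadjusted p under 0.05. All 25 measured of 38 listed erythroid genes had a difference above 0, and 14 were higher at that p with 0 lower. The median was 1.69, and the pairs of replicates 1, 2 and 3 gave medians of 2.15, 2.02 and 1.65. Among the transcription factors, Gata1, the erythroid GATA factor, read 9.49, 9.37 and 9.71 in JAK2V617F+ arrays, against 7.33, 5.14 and 7.15 in JAK2V617F- arrays (difference 2.98, SE 0.85, adjusted p = 0.362). Klf1, which drives globin and membrane genes, differed by 4.03 (SE 1.06, adjusted p = 0.296), and Gfi1b, a repressor of erythroid and megakaryocyte cells, by 2.66 (SE 0.79, adjusted p = 0.381). Pklr, the erythrocyte pyruvate kinase, read 10.02, 8.61 and 11.35 in JAK2V617F+ arrays, against 3.08, 3.49 and 5.20 in JAK2V617F- arrays (difference 6.07, SE 1.65, adjusted p = 0.339). Hbb-b2, a beta globin, differed by 1.69 (SE 0.39, adjusted p = 0.229), with groups that did not overlap, while Hba-a2, an alpha globin, differed by 0.45 (SE 0.43, adjusted p = 0.882). Rhag, of the Rh complex, differed by 4.21 and Kel, a blood group peptidase, by 3.01. Tfrc, the transferrin receptor of all dividing cells, differed by 0.19 (SE 0.31). Of 9 measured genes of haem synthesis, 8 had a difference above 0 and 1, Tmem14c, a porphyrin carrier of mitochondria, was higher at an unadjusted p under 0.05 (difference 1.09, SE 0.43, adjusted p = 0.595).

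Megakaryocyte and eosinophil genes did not pass after adjustment. Of 13 megakaryocyte and platelet genes, 10 were above 0, where 54.5% of all probe sets were, with a median of 1.11. At an unadjusted p under 0.05, 3 were higher, where 4.61% of all probe sets were. Pf4, platelet factor 4, read 11.91, 12.69 and 14.05 in JAK2V617F+ arrays, against 10.82, 10.41 and 11.18 in JAK2V617F- arrays (difference 2.08, SE 0.57, adjusted p = 0.339). Rab27b, a secretory granule GTPase that mast cells share, differed by 4.99 (SE 1.20, adjusted p = 0.257). Vwf was at the floor in the replicate 1 JAK2V617F+ array and read 7.10 and 7.63 in the other 2, against 2.22 in every JAK2V617F- array. The 4 measured eosinophil genes had a median of 1.21, and Prg3, a granule protein, differed by 5.19 (SE 1.54, adjusted p = 0.381).

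Monocyte, macrophage, dendritic and B cell genes leaned the other way. In the whole table, 4687 of 10335 probe sets had a difference below 0. At an unadjusted p under 0.05, 2.80% were lower and 4.61% higher. Of 24 measured monocyte, macrophage and dendritic cell genes, 16 had a difference below 0, 5 were lower at that p and 0 higher, and the median was -1.40. Their mean log2 signal was 6.32, 6.73 and 6.42 in JAK2V617F+ arrays and 7.81, 7.85 and 7.57 in JAK2V617F- arrays. H2-Aa, a class II MHC chain, differed by -2.59 (SE 0.72, adjusted p = 0.35) and Cd74, its invariant chain, by -3.03 (SE 0.86, adjusted p = 0.362). Irf8, the transcription factor of monocytes and dendritic cells, read 2.59, 4.97 and 2.56 in JAK2V617F+ arrays, against 5.77, 7.86 and 7.29 in JAK2V617F- arrays. The 8 members with a difference above 0 were Fcgr3 (1.65), Ccr2 (1.57), Zbtb46 (1.06), Cd68 (1.03), C1qb (0.96), Lyz1 (0.51), Mpeg1 (0.48) and Adgre1 (0.08), at adjusted p of 0.836 or more. Of 12 B cell genes, 11 had a difference below 0 and 2 were lower at an unadjusted p under 0.05, with a median of -1.91. The pairs of replicates 1, 2 and 3 gave B cell medians of -2.80, -1.29 and 0. Dntt, the terminal transferase of lymphoid precursors, read 2.65, 8.40 and 2.65 in JAK2V617F+ arrays, against 10.91, 9.24 and 8.0 in JAK2V617F- arrays (difference -4.82, SE 1.42, adjusted p = 0.381), and the replicate 2 JAK2V617F+ array overlapped the other group. Igll1, part of the surrogate light chain, differed by -4.33 (SE 2.08, adjusted p = 0.675). The B cell genes Cd79a, Cd79b, Ebf1 and Cd72 were under 2.3 in all JAK2V617F+ arrays and were also low in most JAK2V617F- arrays. Ebf1 read 2.24, 2.22 and 2.22 in JAK2V617F- arrays and differed by -0.01, and Cd79a was above the floor only in JAK2V617F- replicate 1, at 6.88. The part of these other cell types in the called genes was not tested.

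**Figure D3:**
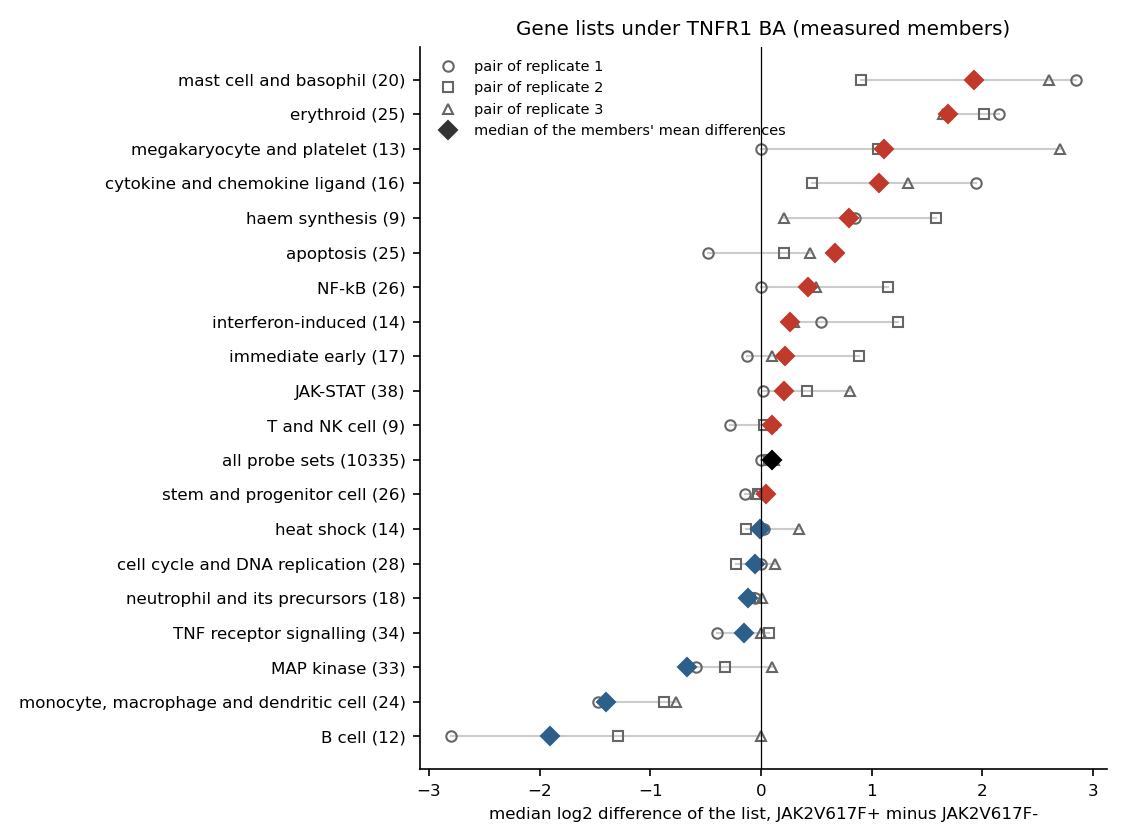
Median log2 difference (x axis, JAK2V617F+ minus JAK2V617F-) of each gene list under TNFR1 BA (y axis, measured members in brackets), for lists of 5 or more members. Filled diamonds are the median over the members' mean differences and open marks the medians of single replicate pairs. Mast cell and basophil (1.93) and erythroid (1.69) lists lie highest and the B cell list (-1.91) lowest, with all probe sets at 0.10.

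Neutrophil, stem cell and T cell lists gave medians near that of all probe sets. The neutrophil list had a median of -0.11 over 18 genes, with 2 lower at an unadjusted p under 0.05 (Camp and Ltf, both proteins of neutrophil granules). In both, JAK2V617F+ replicate 2 was the lowest array. The stem and progenitor list had a median of 0.04 over 26 genes, of which 4 were higher and 1 lower at that p. In the whole table, 4.61% of probe sets were higher and 2.80% lower at that p. The higher genes of the list included Mycn and Gfi1b (difference 2.66, SE 0.79, adjusted p = 0.381). The lower one was Hlf, a transcription factor of stem cells, whose groups overlapped. Hlf read 4.37, 8.20 and 2.74 in JAK2V617F+ arrays, against 10.39, 9.53 and 6.60 in JAK2V617F- arrays (difference -3.74, SE 1.31, adjusted p = 0.527). Cd34 differed by 0.57 (SE 0.62, adjusted p = 0.911). The T and NK cell list had a median of 0.10 over 9 genes. After quantile normalization the T and NK and the stem cell medians were -0.04 and -0.06. Gzmb, granzyme B, which mast cells also make, read 13.12, 13.14 and 13.53 in JAK2V617F+ arrays, against 10.56, 12.72 and 11.23 in JAK2V617F- arrays (difference 1.76, SE 0.38, adjusted p = 0.154). Pecam1, Lepr and Pdgfrb, of the stromal and endothelial list, differed by 1.58, -1.64 and 1.88, at adjusted p from 0.788 to 0.903.

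The receptors that the antibodies target did not differ beyond their spread. Tnfrsf1a read 11.11, 9.70 and 10.23 in JAK2V617F+ arrays, against 8.66, 10.98 and 10.56 in JAK2V617F- arrays (difference 0.28, 95% CI -1.37 to 1.93, adjusted p = 0.978). Tnfrsf1b read 9.53, 12.62 and 11.41 in JAK2V617F+ arrays, against 11.26, 10.59 and 12.17 in JAK2V617F- arrays (difference -0.15, 95% CI -1.62 to 1.32, adjusted p = 0.988). The intervals allow a difference of over 1 log2 unit in either direction. The ligand Ltb was under 2.7 in all 6 arrays, and Tnf has no probe set with a single gene symbol in this table.

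Of 41 genes listed for TNF receptor signalling, 34 were measured, 14 with a difference above 0 and 20 below. At an unadjusted p under 0.05, 3 were higher and 2 lower, where 4.61% and 2.80% of all probe sets were, and Xiap alone passed after adjustment. The list's median was -0.16. Among adaptors and kinases, Tradd, the adaptor that binds the TNFR1 death domain, read 10.97, 10.89 and 11.04 in JAK2V617F+ arrays, against 8.26, 9.87 and 8.17 in JAK2V617F- arrays (difference 2.20, SE 0.83, adjusted p = 0.568). Tab1, a partner of the kinase TAK1, read 4.56, 8.34 and 9.30 against 4.14 in each JAK2V617F- array (difference 3.26, SE 1.44, adjusted p = 0.651). Sharpin, of the linear ubiquitin ligase complex, differed by 0.63 (SE 0.30, adjusted p = 0.666). The cIAP genes Birc2 and Birc3, which attach ubiquitin to RIPK1, differed by -1.32 (SE 0.95) and -1.04 (SE 1.34). Among inhibitors, Cflar, which encodes the caspase 8 inhibitor cFLIP, differed by -2.26 (SE 1.66, adjusted p = 0.836). Its JAK2V617F+ arrays were at 2.32 or less, against 2.22, 4.87 and 6.45 in JAK2V617F- arrays. In the MAP kinase arm, Mapk8, which encodes JNK1, read 3.37, 7.10 and 9.76 in JAK2V617F+ arrays, against 10.14, 8.17 and 10.48 in JAK2V617F- arrays. It overlapped, and the difference of -2.85 (SE 1.34) did not pass (adjusted p = 0.668). Without replicate 1 it was -0.89.

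**Figure D4:**
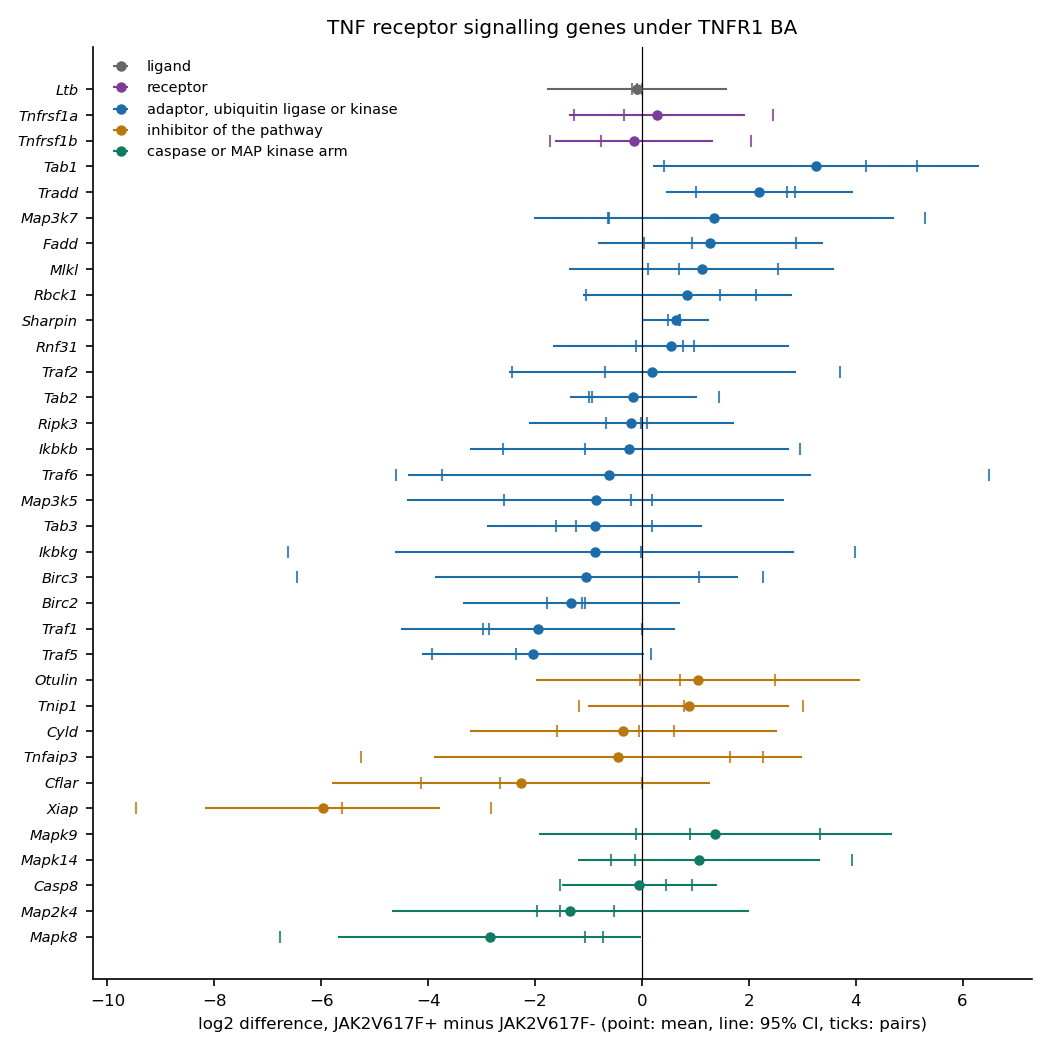
Log2 difference (x axis, JAK2V617F+ minus JAK2V617F-) under TNFR1 BA of the 34 measured TNF receptor signalling genes (y axis), grouped by role in colour. Points are means, lines 95% confidence intervals and ticks the 3 replicate pairs. Xiap (-5.97) is the only gene of the list past the threshold, while Tnfrsf1a (0.28) and Tnfrsf1b (-0.15) lie near 0 with pairs on both sides.

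After adjustment, Lif was the 1 call among the NF-κB and cytokine lists. The shares past an unadjusted p of 0.05 in the whole table were 4.61% (higher) and 2.80% (lower). Of 26 NF-κB genes, 16 were above 0, 3 were higher and 1 lower at an unadjusted p under 0.05, with a median of 0.42. Ccl3, a chemokine, read 12.08, 8.92 and 10.39 in JAK2V617F+ arrays, against 8.63, 4.44 and 4.84 in JAK2V617F- arrays (difference 4.50, SE 1.15, adjusted p = 0.286). Il1b, interleukin 1 beta, read 7.52, 9.87 and 7.47 against 3.41, 5.79 and 2.22 in JAK2V617F- arrays (difference 4.48, SE 1.33, adjusted p = 0.381). Nfkbia, which encodes the inhibitor IκBα, differed the other way, with 9.50, 9.76 and 10.70 in JAK2V617F+ arrays and 10.76, 12.13 and 11.50 in JAK2V617F- arrays (difference -1.48, SE 0.65, adjusted p = 0.644). Cytokine and chemokine ligands had a median of 1.07 over 16 genes, with 13 above 0, 5 higher at an unadjusted p under 0.05 and Lif passing. Of 25 apoptosis genes, 1 was higher (Cycs, cytochrome c, by 1.03) and 1 lower (Xiap) at that p. The list's median was 0.67, but the pairs of replicates 1, 2 and 3 gave -0.48, 0.21 and 0.44. Bok, a pro-death BCL2 family member, differed by 1.87 (adjusted p = 0.735).

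In the JAK-STAT list, 25 of 38 genes were above 0, 5 were higher and 2 lower at an unadjusted p under 0.05, and the median was 0.21. Over all probe sets, 54.5% were above 0, and 4.61% were higher and 2.80% lower at that p. Csf2rb2, the IL-3 receptor beta chain of mice, was tight in JAK2V617F+ arrays at 12.54, 12.75 and 12.56, against 10.17, 11.96 and 10.27 in JAK2V617F- arrays (difference 1.82, SE 0.36, adjusted p = 0.0833). Cish, a STAT5-induced inhibitor, read 11.41, 10.62 and 10.61 in JAK2V617F+ arrays and 10.41, 9.14 and 8.98 in JAK2V617F- arrays (difference 1.37, SE 0.45, adjusted p = 0.484). Of other STAT5 targets, Pim1 differed by 0.01 (SE 0.79) and Socs2 by 0.66 (SE 0.93). Pias3, an inhibitor of STAT3, was at the floor in JAK2V617F+ replicate 1 and read 6.45 and 8.04 in the other 2, against values under 2.3 in JAK2V617F- arrays (difference 3.34, SE 1.16, adjusted p = 0.513). Stat3 was at 2.22 in each JAK2V617F+ array, against 3.14, 4.12 and 5.91 in JAK2V617F- arrays (difference -2.17, SE 1.01, adjusted p = 0.666).

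Of 33 MAP kinase genes, 12 were above 0, 1 was higher and 3 lower at an unadjusted p under 0.05, with a median of -0.66. The shares over all probe sets were 54.5% above 0, with 4.61% higher and 2.80% lower at that p. Map3k2, an upstream kinase, read 2.32, 4.36 and 6.87 in JAK2V617F+ arrays, against 8.11, 8.62 and 8.60 in JAK2V617F- arrays (difference -3.93, SE 1.16, adjusted p = 0.381). The phosphatases Dusp10 and Dusp3 differed in opposite directions, by -3.17 (SE 1.29, adjusted p = 0.603) and 3.16 (SE 1.21, adjusted p = 0.585). Immediate early genes had a median of 0.22 over 17. Jun read 8.11, 9.03 and 7.63 in JAK2V617F+ arrays, against 6.77, 3.02 and 4.50 in JAK2V617F- arrays (difference 3.49, SE 1.19, adjusted p = 0.507), and its AP-1 partner Fosl2 differed by 3.63 (SE 1.32, adjusted p = 0.546). Ier3 differed by 1.03 (SE 0.56). The cell cycle list had a median of -0.05 over 28 genes, with 0 higher and 4 lower at an unadjusted p under 0.05. Ccna2, cyclin A2, had small spread, with 11.92, 12.32 and 11.79 in JAK2V617F+ arrays, against 12.82, 12.94 and 12.89 in JAK2V617F- arrays (difference -0.87, SE 0.27, adjusted p = 0.416). Top2a, the replication topoisomerase, differed by -2.40 (SE 0.88) and the helicase subunit Mcm7 by -1.56 (SE 0.67). In the interferon-induced list 1 of 14 genes, the exonuclease Isg20, was higher at that p (difference 4.21, SE 1.40, adjusted p = 0.502), and Bst2 and Gbp3 differed by 1.51 and -2.36. Of 14 heat shock genes 0 differed at that p, and Bag3, Hsph1 and Hspa4l differed by 2.10, -0.74 and 1.40.

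Set beside the other cultures, the called genes fell into 9 whose 95% interval lay above 0 in all 3 cultures and 4 for which it did not. These intervals are not adjusted for the number of probe sets. Tpsab1, Mycn, Tpsb2 and Cpa3 alone passed the adjusted threshold in all 3 cultures. The intervals of Phlda1 under TNFR2 BA (0.10 to 5.38, adjusted p = 0.73) and Atp1b2 untreated (0.12 to 6.04, adjusted p = 0.594) nearly reached 0. Mycn differed by 8.45 under TNFR1 BA, by 8.12 under TNFR2 BA and by 8.22 untreated, and Cpa3 by 2.34, 2.62 and 2.37. Tpsab1 (9.45, 8.60 and 8.58), Tpsb2 (6.74, 7.51 and 7.90), Cma1 (6.49, 4.90 and 6.05) and Lif (7.57, 6.34 and 7.54) are given in the same order of cultures. Tph1 differed by 7.12 under TNFR1 BA, 4.04 under TNFR2 BA and 7.80 untreated. Its JAK2V617F- arrays averaged 5.16 under TNFR1 BA, 8.39 under TNFR2 BA and 5.32 untreated. The test of the difference from the TNFR2 BA cultures gave 3.08 (SE 1.22, unadjusted p = 0.0225, adjusted p = 0.987). Phlda1 differed by 7.87, 2.74 and 5.39, and Atp1b2 by 6.71, 4.81 and 3.08. Neither passed a test of the difference between cultures.

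Clca3a1, Cox6b2 and Chd9 had a genotype difference under TNFR1 BA with little counterpart elsewhere. Clca3a1 averaged 7.59 ± 0.81 (SD, n = 3) in JAK2V617F+ cells under TNFR1 BA, 2.95 ± 1.22 in JAK2V617F+ cells under TNFR2 BA and 2.37 in the 2 untreated JAK2V617F+ arrays. Its JAK2V617F- groups averaged 2.72 under TNFR1 BA, 2.22 under TNFR2 BA and 2.22 untreated, so that the TNFR1 BA JAK2V617F+ arrays were the high ones. Its TNFR1 BA difference exceeded the untreated one by 4.89 (SE 1.23, unadjusted p = 0.00114, adjusted p = 0.705) and the TNFR2 BA one by 4.13 (SE 1.15, unadjusted p = 0.00248, adjusted p = 0.823). For Chd9 the JAK2V617F- arrays under TNFR1 BA stood apart, at 7.21 ± 0.57, while the other 5 groups averaged 2.22 to 2.98. Its difference was below the untreated one by -5.49 (SE 1.26, unadjusted p = 0.000522, adjusted p = 0.705). Cox6b2 averaged 6.02 ± 2.96 in JAK2V617F- cells under TNFR1 BA, where the other 5 groups averaged 8.98 to 10.77, and its difference exceeded that under TNFR2 BA by 6.10 (SE 1.19, unadjusted p = 0.00011, adjusted p = 0.575). None of these passed the adjusted threshold, so a difference between cultures is not shown for them.

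Xiap differed by -5.97 under TNFR1 BA and by -7.23 untreated, against 1.21 under TNFR2 BA. JAK2V617F+ arrays averaged 4.52 under TNFR1 BA, 10.79 under TNFR2 BA and 2.42 untreated, while JAK2V617F- arrays averaged 10.49, 9.58 and 10.24 in the same order. The TNFR1 BA difference lay below that under TNFR2 BA by -7.18 (SE 1.46, unadjusted p = 0.000167, adjusted p = 0.575). Mapk8 differed by -2.85 under TNFR1 BA, -1.05 under TNFR2 BA and -6.67 untreated. Itm2a, Prdx2 and Asb17, named here because the paper discusses them, differed by 0.94, 1.73 and 1.15 under TNFR1 BA (adjusted p 0.861 to 0.936), by 0.59, 1.26 and 0.23 under TNFR2 BA and by 6.25, 6.51 and 5.67 untreated. Prdx2 and Asb17 were at the floor in JAK2V617F+ replicates 2 and 3 under TNFR1 BA and read 7.41 and 7.14 in replicate 1. Itm2a read 2.44, 4.99 and 2.30 in JAK2V617F+ cells under TNFR1 BA, against 2.30 in each JAK2V617F- array.

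**Figure D5:**
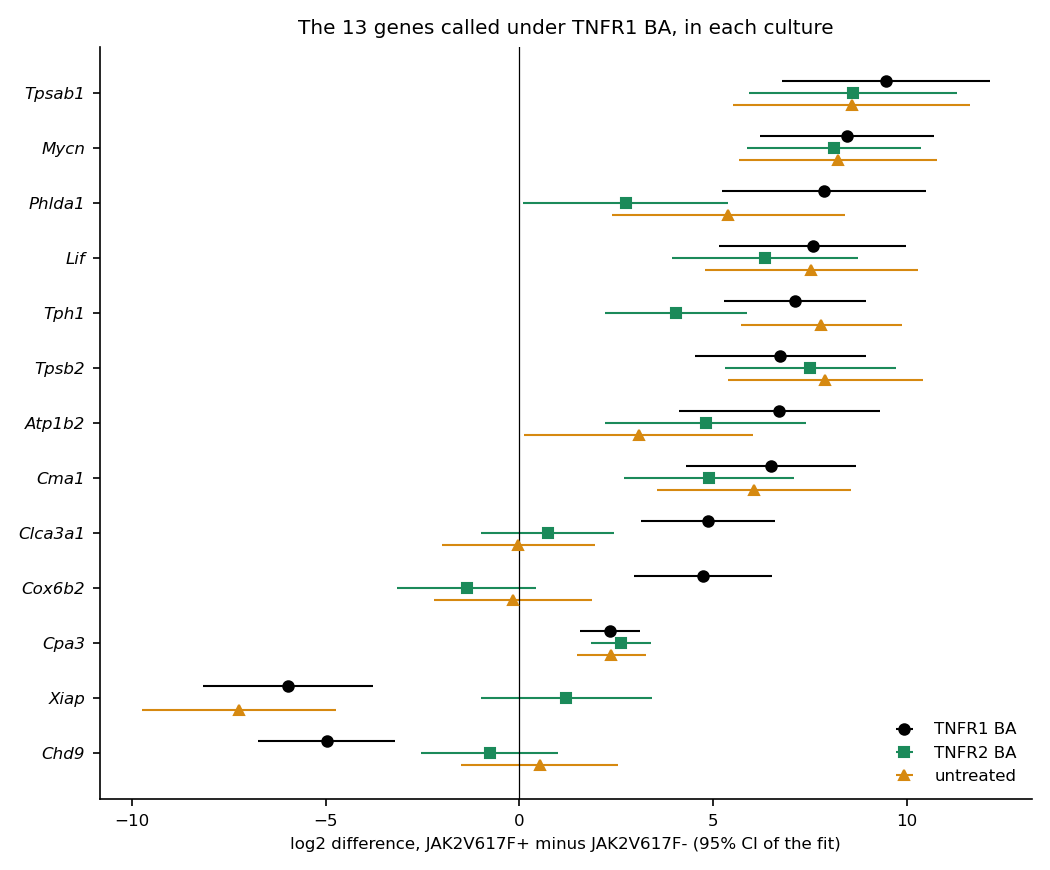
Log2 difference (x axis, JAK2V617F+ minus JAK2V617F-, with 95% confidence interval) of the 13 genes called under TNFR1 BA (y axis), in TNFR1 BA (black circles), TNFR2 BA (green squares) and untreated cultures (orange triangles). Mycn lies at 8.45, 8.12 and 8.22 in the 3 cultures, while Clca3a1, Cox6b2 and Chd9 differ from 0 under TNFR1 BA and have intervals that include 0 in the other 2.

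Tested over all probe sets, the TNFR1 BA difference departed from the untreated one for 1 probe set (0.00968%, with 6.06% at an unadjusted p under 0.05) and from the TNFR2 BA one for 0 (0%, with 505 probe sets or 4.89% at an unadjusted p under 0.05). The 1 was Psmb7, a beta subunit of the proteasome core. It read 13.16, 13.72 and 13.20 in JAK2V617F+ cells under TNFR1 BA, against 12.11, 12.59 and 11.20 in JAK2V617F- cells. Untreated, the order was the other way, with 11.59 and 11.80 in JAK2V617F+ arrays, against 13.19, 13.22 and 13.01 in JAK2V617F- arrays. The TNFR1 BA difference of 1.39 exceeded the untreated one of -1.66 by 3.05 (SE 0.41, adjusted p = 0.0195). It did not pass with any 1 replicate number left out, nor without the replicate block. Under TNFR2 BA the Psmb7 difference was 0.08. Cry2, a repressor of the circadian clock, came next. It read 9.69, 9.29 and 9.53 in JAK2V617F+ cells under TNFR1 BA and 8.63, 8.12 and 7.59 in JAK2V617F- cells, while the untreated JAK2V617F+ arrays were at 3.24 and 3.37, so the 2 differences were 7.09 apart (SE 1.19, adjusted p = 0.116). Chd9, described above, followed with -5.49 (adjusted p = 0.705). After Chd9 came Dpf2, a subunit of the BAF chromatin remodeling complex, with -8.88 (adjusted p = 0.705), and the chromatin protein Cfdp1 with 2.97 (adjusted p = 0.705). For Dpf2 the difference was -2.18 under TNFR1 BA, where JAK2V617F- replicate 3 read 8.78 and the other 5 arrays were at or near the floor. Untreated, it was 6.70, with 9.60 and 8.56 in JAK2V617F+ arrays, against 2.24, 2.24 and 5.18 in JAK2V617F- arrays. Against the TNFR2 BA cultures, after Cox6b2, the smallest p-values were those of Pbdc1 (2.62), Xiap (-7.18), the kinase Akt2 (-4.51) and Commd6 (5.23), at adjusted p from 0.575 to 0.731. Across all probe sets the genotype differences of the TNFR1 BA cultures correlated by 0.16 with the untreated ones and by 0.20 with those under TNFR2 BA.

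The 13 calls differed in how they held when arrays were left out. In 9 fits that left out 1 TNFR1 BA array or 1 replicate number, Tph1 passed in 6, Mycn in 5, Tpsab1 in 4 and Cma1 in 3. Xiap passed in 2, and Cox6b2, Cpa3 and Lif in 1 each. Phlda1, Tpsb2, Atp1b2, Clca3a1 and Chd9 passed in 0. The sizes moved little where the groups were tight: Mycn ranged from 8.05 to 8.74 over all alternatives and Chd9 from -5.25 to -4.50, while Cma1 ranged from 4.33 to 7.80 and Xiap from -7.54 to -4.22. Without the replicate block the calls were 8 higher and 1 lower, and Xiap, Atp1b2, Cox6b2 and Cpa3 no longer passed.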

How the data were processed

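RNA of sorted Lin-Kit+ cells was amplified and hybridised to Affymetrix mouse expression arrays. The deposited values are log2 signals per probe set, made by the authors with Affymetrix Expression Console (background correction and normalization not given in the sources used here). No filter was applied to them here. Shares and adjusted p-values refer to the 10335 probe sets of the deposited table. That table lacks many listed genes, with 20 of 34 mast cell and basophil genes measured, and is not taken as the whole array. How its probe sets were chosen was not established, so these shares and adjusted p-values need not hold array-wide. Differences between genotypes were fitted with limma 3.58.1 in R 4.3.3 (group means of 6 groups, the replicate number as a block, eBayes with a trend) on 17 arrays, with Benjamini-Hochberg adjustment over 10335 probe sets and a threshold of 0.05. The replicate block follows the paired comparisons of the study's methods. Scripts were tested on simulated data. Of the probe sets, 9651 had 1 gene symbol, 27 had several and 657 had none in the platform table. The probe sets with 1 symbol covered 9636 genes, of which 15 had over 1 probe set. Nearly every gene, called or not, therefore rests on a single probe set. Lists used the brightest probe set of a gene.

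Named genes were those past the threshold, the lower probe sets of smallest p without overlap until 10 were named, the 3 of smallest p in each list with its defining members, genes the paper discusses, and the 5 of smallest p for each difference between cultures. The members and lists were chosen with earlier results of these data known. With 3 arrays a group an exact permutation test of 1 gene cannot go below p = 0.1, so none was used. Alternatives were other arrays in the fit, quantile normalization, a filter at a mean log2 signal of 6, array weights, no trend, no block, the methods' t-test, 1 probe set per gene and arrays left out. Promoters were read from a RefSeq table of GRCm38.p6.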

Additional observations from a re-analysis of the deposited data

Results flagged for a closer look

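Some genotype differences under TNFR1 BA ran against those of another culture. Psmb7 is listed because the test of the difference between cultures passed, with the TNFR1 BA difference exceeding the untreated one by 3.05 (SE 0.41, adjusted p = 0.0195). The others are listed because every TNFR1 BA pair had one sign and every pair of the other culture the opposite sign, and for them the test between cultures did not pass (adjusted p 0.116 to 0.879). The untreated cultures have 2 pairs and the TNFR2 BA cultures 3, so opposite signs in every pair rest on few arrays.

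Against the untreated cultures, the TNFR1 BA difference was higher by 7.09 for the clock repressor Cry2, by 4.96 for the phosphatase Dusp3, by 4.90 for Cox6b2, by 3.94 for Il1b, by 3.03 for Commd6, by 2.97 for Cfdp1, by 2.16 for the porphyrin carrier Tmem14c and by 1.99 for Pbdc1. For the Golgi GTPase Rab2a the value was -2.58.

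Against the TNFR2 BA cultures, the TNFR1 BA difference was higher by 7.06 for the secretory GTPase Rab27b, by 6.10 for Cox6b2, by 5.23 for Commd6, by 2.62 for Pbdc1 and by 2.13 for Tmem14c. The values were -7.18 for Xiap, -4.51 for Akt2 and -1.21 for cyclin A2 (Ccna2). Cox6b2, Tmem14c, Pbdc1 and Commd6 stand in both comparisons, which share the TNFR1 BA arrays. Groups of 3 arrays were too small for a check of single outlying arrays.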

How the results depend on the processing

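Counts of calls depended on which arrays estimated the spread. The 11 higher and 2 lower calls were 10 and 2 after quantile normalization, 11 and 2 with array weights, and 9 and 1 with dim probe sets filtered out (6559 tested). They were 8 and 1 without a variance trend, and 6 and 1 with all 18 arrays. With 1 probe set per gene (9636 tested) they were also 11 and 2. Only 15 genes had over 1 probe set, so that alternative could change little. The calls were 0 and 0 in the 6 TNFR1 BA arrays alone, with or without the replicate block, and 0 and 0 by the methods' t-test after adjustment. With 1 array or 1 replicate number left out they ranged from 0 to 8 higher and from 0 to 1 lower. Such fits hold fewer arrays, and no other cause was tested.

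Without the replicate block the calls were 8 higher and 1 lower, and the difference between TNFR1 BA and untreated cultures had 0 calls instead of 1. That 1, Psmb7, also gave 0 calls with any replicate number left out, and 1 in the other alternatives run. The pairing was read from the replicate numbers, which the labels do not tie to an experiment. Deviations from the group means correlated by 0.026, 0.070 and 0.112 in the 3 TNFR1 BA pairs, against a mean of -0.033 for arrays of unlike number. For 14 of 17 arrays the closest match was to the same number.

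Among single genes, signs turned for 8 that had not passed. With 1 array or replicate number left out, Prdx2 ranged from -0.30 to 3.04, Asb17 from -0.26 to 2.26, Tnfrsf1a from -0.80 to 1.06, Tnfrsf1b from -1.24 to 0.76, Hsph1 from -1.46 to 0.088, Hspa4l from -0.19 to 2.67, Lepr from -3.07 to 0.21 and Pdgfrb from -0.64 to 4.02. With array weights Tnfrsf1b was 0.15. Of the remaining values for single genes and lists, 1753 kept their direction and side of the threshold or moved within their spread, 152 kept their direction and no longer passed, 2 newly passed and 49 moved further. Signals near the floor limit what a difference can show.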
